A study of Mus musculus with 6 samples.

Results

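The 10 genes described here hold T cells out of the cell cycle or set the pace of its first gap phase, G1. They are the antiproliferative genes Btg1, Btg2, Tob1 and Tob2, the inhibitors Cdkn1b and Cdkn2d, the kinase Cdk6, the D-type cyclins Ccnd2 and Ccnd3, and the pocket protein gene Rbl2. They were taken by symbol from a table of raw counts, where all 10 were among its 14515 genes. RNA came from naive CD8 T cells of the spleens of 3 wild type mice (Lair1+/+) and 3 LAIR-1-deficient mice (Lair1-/-), with 1 library per mouse. The cells were taken at baseline, and 100000 per mouse were sorted as CD45+, CD3+, CD8+ and CD44- cells, among other criteria. LAIR-1 is a collagen receptor with inhibitory function on immune cells, and the Lair1-/- mice lack it. No strain, age or allele structure is given in the labels. The comparison asks whether the loss of this receptor changes the RNA of resting naive CD8 T cells at baseline.

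Naive T cells rest outside the cycle until antigen is met. BTG and TOB proteins restrain growth by recruiting the CCR4-NOT deadenylase, which shortens the poly(A) tails of messenger RNAs. Entry into the cycle requires D-type cyclins to bind CDK4 or CDK6, which phosphorylate the retinoblastoma family of pocket proteins and release E2F factors. The inhibitor p27, encoded by Cdkn1b, binds cyclin and kinase complexes, and p19, encoded by Cdkn2d, binds CDK4 and CDK6 directly. The pocket protein p130, encoded by Rbl2, represses cell cycle genes in resting cells together with E2F4 and the DREAM complex.

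All 10 are annotated as protein coding in GENCODE vM21 (GRCm38, the mm10 build). Of the antiproliferative genes, Btg1 lies at chr10:96617006-96622809 (plus strand) and Btg2 at chr1:134075170-134079120 (minus strand). Tob1 lies at chr11:94211454-94215495 (plus strand) and Tob2 at chr15:81848272-81858796 (minus strand). The inhibitor genes are at chr6:134920401-134925513 (plus strand) for Cdkn1b and chr9:21288410-21291407 (minus strand) for Cdkn2d. Ccnd2, at chr6:127125162-127152193 (minus strand), shares chromosome 6 with Cdkn1b, and Ccnd3 is at chr17:47505051-47599691 (plus strand). Cdk6 spans chr5:3341485-3531008 (plus strand) and Rbl2 chr8:91070057-91123844 (plus strand). The counts are those assigned to each gene, and no label states which part of it was read.

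The libraries held 5519748 to 9187017 counts over genes, and each Lair1-/- library was shallower than each wild type library. Levels are in CPM, which are counts brought to a common library size with TMM factors. Each fold change has wild type as its base, so a positive log2 value means more RNA in Lair1-/- cells. Lair1 fell from 5.21 ± 1.94 to 0.201 ± 0.0784 CPM (SD, n = 3 each), with 133 against 4 counts in sum (edgeR adjusted p 0.00255). Its log2 fold change was -4.61 without mouse 1 of both groups and -4.26 without wild type mouse 1, where the adjusted p by edgeR was 0.0712 and 0.0592, so that no gene was then called. The 6 matched markers of CD8 T cells summed to between 5724 and 6184 CPM, while Cd4 was at 0 to 2.46 CPM. The 6 matched markers of memory and effector CD8 T cells summed to 121 to 136 CPM, mostly Eomes (38.1 to 58.7 CPM) and Il2rb (38.1 to 52.5 CPM), with overlap between genotypes for each of the 5 tested. Cd44, whose protein was gated against, was at 11.2 to 21.8 CPM. Of other cells, the 5 matched B cell markers summed to 25.3 to 32.8 CPM, and the NK, dendritic and macrophage lists to at most 0.547, 2.05 and 5.06 CPM. The haemoglobin row Beta-s ranged from 26.9 to 166 CPM. The mouse 1 libraries of both genotypes stood apart: all 13 listed immediate early genes, which are induced within minutes of stimulation, were higher in both than in the other 4 libraries. The list summed to 11007 CPM in wild type mouse 1 and 13046 CPM in Lair1-/- mouse 1, and to 4381 to 5032 CPM in the other libraries. The fits were therefore repeated without mouse 1 of both groups.

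None of the 10 genes was called different between genotypes. All 10 passed the filter on low counts, and 0 had an adjusted p under 0.05 in edgeR's quasi-likelihood test, against 0.0105% of the 9565 genes tested, which is Lair1 alone. At an unadjusted p under 0.05 there were also 0 of 10, against 3.25% of all genes. DESeq2 and limma-voom called 0 of 10 as well. By sign, 6 fold changes were positive and 4 negative (49.8% of all genes were negative), with a median log2 fold change of 0.03, against 0.0006 over all genes tested. The precision differed widely within the group. For 6 of the 10, the 95% interval excluded a difference of 1.5-fold either way (63.2% of all genes), and for 7 it excluded 2-fold (85.9%). Tob2, Btg2 and Cdk6 had wider intervals, so a 2-fold difference lay within the interval for these 3.

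**Figure D1:**
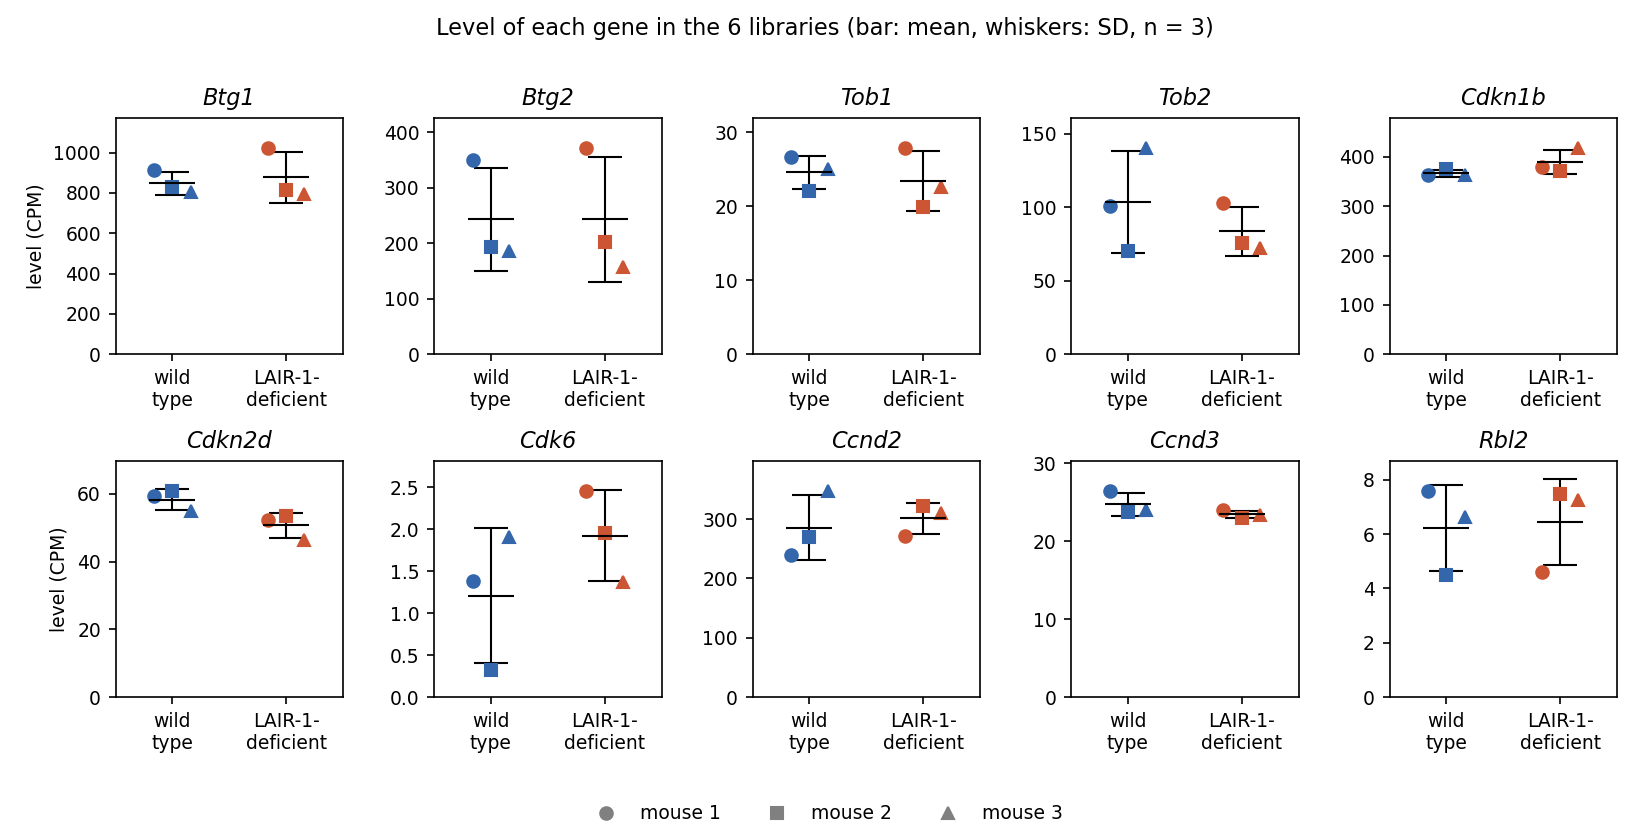
Level in CPM (vertical axes, each from 0 with its own scale) of the 10 genes in wild type (blue) and LAIR-1-deficient (red) libraries, with the mouse number as the symbol, the mean as a bar and the SD as whiskers (n = 3). The groups overlap for every gene except Cdkn2d, and Btg2 is highest in mouse 1 of both genotypes.

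Btg2 was the member that varied most between mice among those with more than 100 counts per library. Its protein is an antiproliferative cofactor of deadenylation, and its gene is known as one induced by p53 and by growth and antigen receptor signals. It was at 351, 193 and 186 CPM in wild type mice 1 to 3 and at 371, 202 and 158 CPM in Lair1-/- mice 1 to 3. The groups overlapped almost fully, and each genotype held 1 high and 2 low libraries, the high one being mouse 1. The mouse 1 libraries averaged 1.95 times the other 4, and the highest library was 2.35 times the lowest, a range over 2-fold that 17.8% of tested genes reached. Means were 243 ± 93.3 and 244 ± 113 CPM, and the 95% interval of their log2 ratio of 0.0036 ran from -1.27 to 1.28, wider than that of 98.5% of tested genes. Without mouse 1 of both groups, the highest library of each genotype was gone and 2 mice per group remained. The log2 ratio was then -0.08 (-0.33 to 0.17), for a fold between 0.797 and 1.12. Leaving out 1 library moved it from -0.44 (without Lair1-/- mouse 1) to 0.36 (without wild type mouse 1), with no call.

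Btg1, the closest relative of Btg2, kept a narrow range. Its levels were 911, 829 and 803 CPM in wild type mice 1 to 3 and 1020.1, 814 and 794 CPM in Lair1-/- mice 1 to 3. Here too the mouse 1 libraries were the highest of each genotype, but they averaged only 1.19 times the others. The means of 848 ± 56.7 and 876 ± 125 CPM differed by 0.05 on the log2 scale (SE 0.10, interval -0.17 to 0.26, or 0.891-fold to 1.20-fold). Without mouse 1 of both groups it was -0.03 (-0.22 to 0.17), and without Lair1-/- mouse 1 alone it was -0.08.

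Tob1 and Tob2, the larger members of the family, overlapped between genotypes as well. Tob1 was at 26.6, 22.1 and 25.02 CPM in wild type, against 27.8, 19.9 and 22.6 CPM in Lair1-/- mice 1 to 3, again with both mouse 1 libraries above the other 4. Its log2 fold change was -0.06 (interval -0.39 to 0.26). It was -0.15 without mouse 1 of both groups, -0.21 without Lair1-/- mouse 1 and 0.04 without Lair1-/- mouse 2. Tob2 was at 101, 70.5 and 139.9 CPM in wild type, against 103, 75.4 and 72.0 CPM in Lair1-/- mice 1 to 3. Wild type mouse 3 stood above all other libraries of Tob2, and wild type mouse 2 below them. The means of 104 ± 34.8 and 83.5 ± 16.9 CPM differed by -0.31 on the log2 scale (interval -1.02 to 0.40). The value rested on those libraries: it was -0.03 without wild type mouse 3 and -0.53 without wild type mouse 2, where the unadjusted p was 0.00857 and the adjusted p 1.000. Without mouse 1 of both groups it was -0.52 (-1.82 to 0.79).

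In Btg1, Btg2 and Tob1 both mouse 1 libraries lay above the other 4, which held for 3 of the 10 genes and for 11.9% of all tested genes. In none of the 10 did both lie below the other 4, which 12.1% of all genes did. Promoters of these 3 genes, with that of Tob2 beside them as the family member without the pattern, are shown from RefSeq (GRCm38.p6), from 250 bases before to 50 after the annotated start in the direction of the gene. Capitals mark CCAAT, the element TGACGT, which is the core of the cyclic AMP response element TGACGTCA, and the forkhead element GTAAACA, each on either strand. The windows are chr1:134079106-134079405 (minus strand) for Btg2, chr10:96616751-96617050 (plus) for Btg1, chr11:94211204-94211503 (plus) for Tob1 and chr15:81858277-81858576 (minus) for Tob2.
Btg2: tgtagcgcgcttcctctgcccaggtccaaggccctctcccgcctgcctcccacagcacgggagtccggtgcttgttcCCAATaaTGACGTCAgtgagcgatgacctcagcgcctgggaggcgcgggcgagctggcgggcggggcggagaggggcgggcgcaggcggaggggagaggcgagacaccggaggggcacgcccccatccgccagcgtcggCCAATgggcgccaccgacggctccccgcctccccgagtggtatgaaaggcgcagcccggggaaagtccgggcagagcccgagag
Btg1: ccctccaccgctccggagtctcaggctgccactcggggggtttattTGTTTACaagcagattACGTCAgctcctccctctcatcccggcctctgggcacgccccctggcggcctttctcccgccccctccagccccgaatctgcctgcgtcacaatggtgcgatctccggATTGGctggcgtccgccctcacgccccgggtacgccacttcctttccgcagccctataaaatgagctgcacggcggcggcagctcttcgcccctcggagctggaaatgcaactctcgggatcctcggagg
Tob1: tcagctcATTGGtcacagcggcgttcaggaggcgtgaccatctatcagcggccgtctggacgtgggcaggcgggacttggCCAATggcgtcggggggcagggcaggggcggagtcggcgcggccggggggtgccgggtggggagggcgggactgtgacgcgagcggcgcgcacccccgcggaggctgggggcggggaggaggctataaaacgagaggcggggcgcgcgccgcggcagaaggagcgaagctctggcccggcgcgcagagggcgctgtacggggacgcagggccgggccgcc
Tob2: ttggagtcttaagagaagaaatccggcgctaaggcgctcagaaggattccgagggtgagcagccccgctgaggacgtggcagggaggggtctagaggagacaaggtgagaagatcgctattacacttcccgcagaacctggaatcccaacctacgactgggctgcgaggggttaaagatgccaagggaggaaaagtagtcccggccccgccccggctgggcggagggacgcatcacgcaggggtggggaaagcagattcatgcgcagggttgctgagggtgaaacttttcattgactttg
The Btg2 window holds the full TGACGTCA, which 1.79% of 32851 promoter windows hold, with a CCAAT just before it and another nearer the start. The Btg1 window holds TGACGT without the full element, the forkhead element and 1 CCAAT. Tob1 holds 2 matches of CCAAT and neither other element, and Tob2 holds none of the 3. The Tob2 window follows a RefSeq start and lies wholly inside the GENCODE gene, whose 5' end is at chr15:81858796. It therefore does not cover that start, while the windows of Btg1, Btg2 and Tob1 do cover theirs. Over the 9 members with a window, TGACGT was present in 3 (Btg1, Btg2 and 1 of 2 windows of Ccnd3), against 7.51% of all windows. That Ccnd3 window, chr17:47593217-47593516, and the Cdk6 window also lie wholly inside the GENCODE gene and do not cover its start. GTAAACA was present in 2 (Btg1 and Ccnd3), against 3.65%, and CCAAT in 6, against 37.4%. The full element is counted within TGACGT. A member counts if any of its windows matches, and Ccnd3 has 2, while the background counts each window by itself. The serum response element, by its CArG box, and the E2F elements TTTCCCGC and TTTGGCGC had no match in any member's window. They occur in 1.63%, 1.07% and 0.514% of all windows. Of the other elements searched, CACGTG was present in 1 member (Cdk6), against 7.15% of all windows. TTTGAA was present in 1 (Rbl2), against 17.9%. These are matches of letters in a window and say nothing of binding.

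The gene profiles nearest to Btg2 over the 6 libraries, by the root mean square difference of log2 CPM after centring each gene, were Tnfrsf12a (0.07), Ppp1r15a (0.09) and Junb (0.09). Ppp1r15a encodes the stress-induced regulatory subunit GADD34 of protein phosphatase 1, and Junb a subunit of the AP-1 factor. Ppp1r15a was at 864 CPM in wild type mouse 1, 901 CPM in Lair1-/- mouse 1 and 406 to 477 CPM in the other 4 libraries. Junb was at 2614 and 2732 CPM in those libraries and between 1397 and 1528 CPM in the others. Like Btg2, each had 2 high and 4 low libraries, split by mouse and not by genotype. That likeness follows from their choice as the profiles nearest to Btg2 in these same libraries. Tnfrsf12a, a receptor of the TNF family, was low, at 1.37 to 4.04 CPM. Of the 13 immediate early genes, those with the most counts after Junb were Jun, at 702 to 2854 CPM, and Dusp2, at 432 to 1270.03 CPM. Between genotypes, 9 of the 13 had a positive and 4 a negative log2 fold change with 0 called, Ier5 (-0.09) and Fosb (0.51) having the smallest p. Without mouse 1 of both groups, 12 of the 13 were negative (50.6% of all genes), and 5 had an unadjusted p under 0.05 (4.53% of all genes), Egr2 (-0.59), Nr4a1 (-0.53), Egr1 (-0.41), Ier2 (-0.34) and Dusp2 (-0.28), with 0 called. The 13 genes rose together in mouse 1, so their signs cannot be counted as independent, and only 2 mice per group remained. The median of the 13, relative to each gene's mean, was 0.85 and 1.26 (log2) in the mouse 1 libraries and between -0.70 and -0.34 in the others. The centred Btg2 levels were 0.61 and 0.69 in mouse 1 and -0.55 to -0.19 in the others. Why mouse 1 of both genotypes shared this was not tested, and no label describes what the mice of 1 number had in common.

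**Figure D2:**
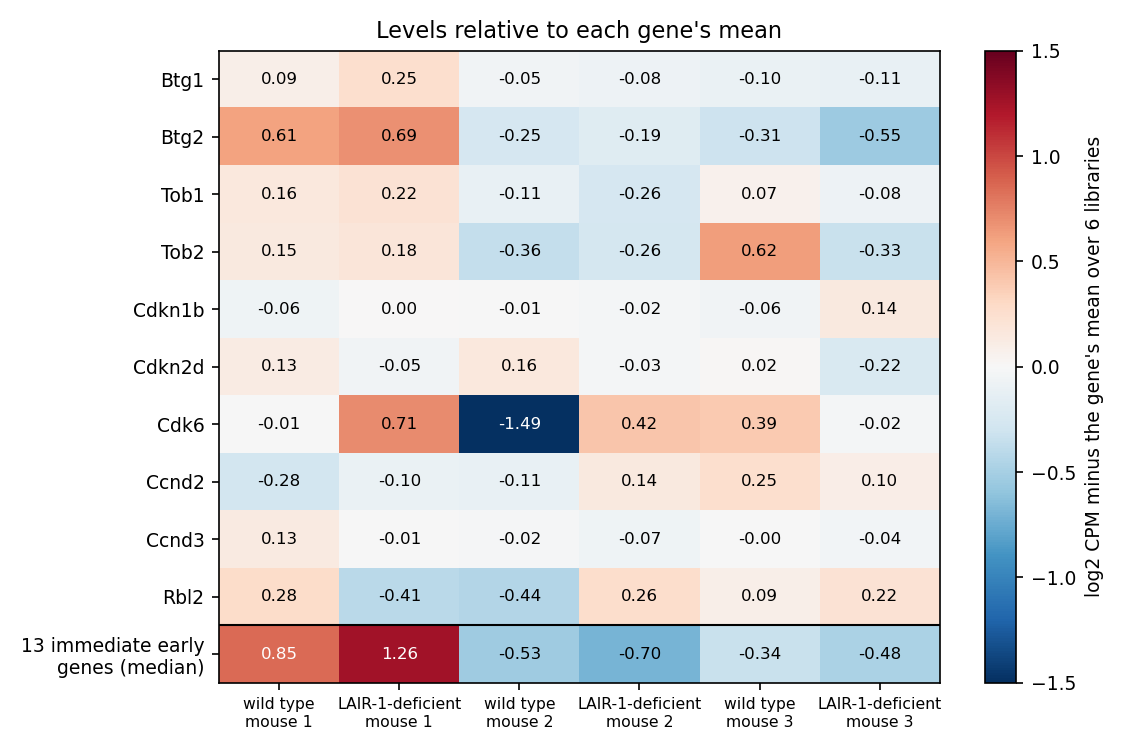
Log2 CPM minus each gene's mean over the 6 libraries (colour and printed value) for the 10 genes and, in the last row, the median of 13 immediate early genes, with libraries in columns ordered by mouse number. Btg2 and the immediate early median are positive in both mouse 1 libraries and negative in the other 4, and the row of Cdkn1b stays within 0.14 of 0.

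Among the inhibitors, Cdkn1b was the most precisely measured of the 10 genes. It was at 362, 375 and 363 CPM in wild type, against 379, 371 and 417 CPM in Lair1-/- mice 1 to 3. The levels overlapped, with Lair1-/- mouse 3 highest. The coefficient of variation among wild type mice was 1.99%, close to the 1.77% that counting error alone gives at this depth, and 6.32% among Lair1-/- mice. The log2 ratio was 0.08 (SE 0.09, interval -0.10 to 0.27), so the fold lay between 0.933 and 1.20. Only 1.21% of tested genes had a narrower interval. Leaving out 1 library gave 0.03 (without Lair1-/- mouse 3) to 0.12 (without Lair1-/- mouse 2).

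Cdkn2d was the only member whose libraries did not overlap between genotypes, and it did not pass the test. It was at 59.3, 60.7 and 55.0 CPM in wild type, against 52.3, 53.4 and 46.5 CPM in Lair1-/- mice 1 to 3, so every Lair1-/- library lay below every wild type library. Separation in that direction was found for 4.09% of all tested genes, in the other for 4.3% and in either for 8.38%, so that 1 of 10 members is near the background. The means were 58.3 ± 3.00 and 50.7 ± 3.71 CPM. On the log2 scale the difference was -0.20 (SE 0.12, interval -0.45 to 0.04). The unadjusted p was 0.096 and the adjusted p 1.000 in edgeR's quasi-likelihood test. It was -0.22 without mouse 1 of both groups, and between -0.25 and -0.14 when 1 library was left out. When libraries were scaled by their totals, the groups did not overlap for Cdkn2d or for Ccnd3. The share of all genes without overlap under that scaling was not computed, so these separations have no background beside them.

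**Figure D3:**
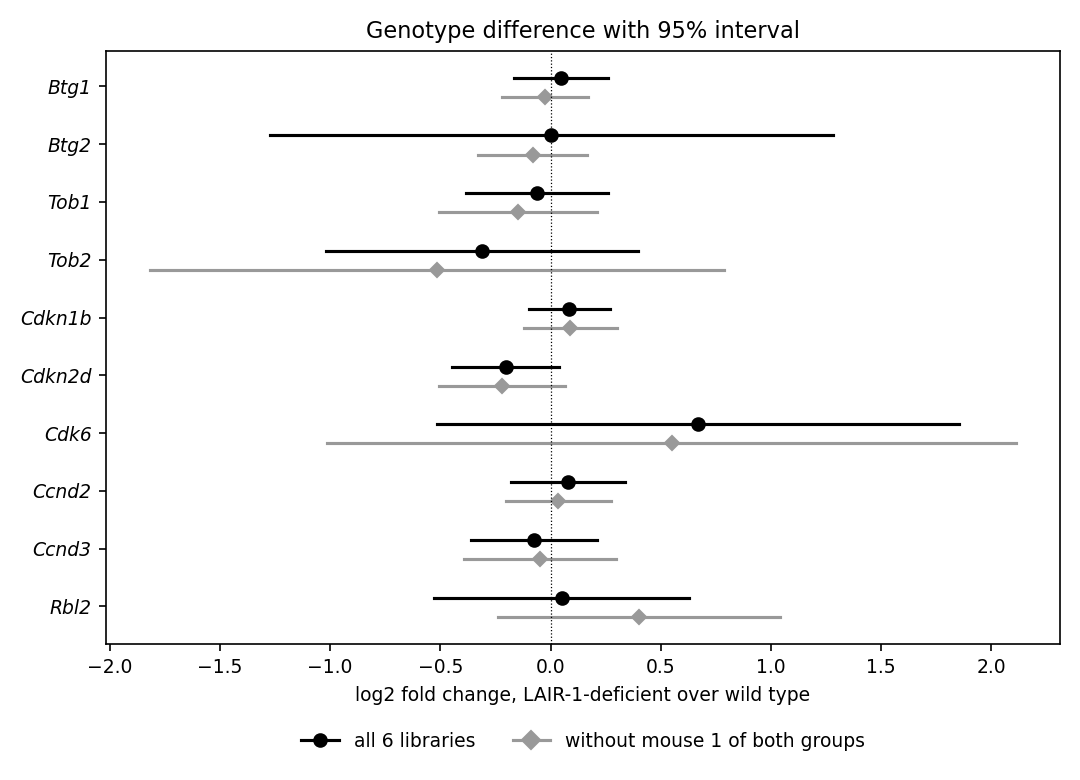
Log2 fold change of LAIR-1-deficient over wild type (horizontal axis) with its 95% interval for each gene, from all 6 libraries (black circles) and without mouse 1 of both groups (grey diamonds). Every interval spans 0. That of Btg2 shrinks from -1.27 to 1.28 to -0.33 to 0.17 without mouse 1, while that of Tob2 widens. The grey intervals rest on 2 mice per group, without the highest Btg2 library of each genotype.

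The D-type cyclins and their kinase showed no difference beyond the spread between mice. Ccnd2 was at 240.01, 269.5 and 346 CPM in wild type, against 271, 322 and 311 CPM in Lair1-/- mice 1 to 3. In each genotype mouse 1 was the lowest library, and the groups overlapped. The log2 fold change was 0.08 (interval -0.18 to 0.34). It was 0.24 without wild type mouse 3, with an unadjusted p of 0.0423 and an adjusted p of 0.999, and -0.03 without wild type mouse 1. Ccnd3 was steadier, at 26.4, 23.7 and 24.0 CPM in wild type, against 23.9, 22.9 and 23.4 CPM in Lair1-/- mice 1 to 3. The means of 24.7 ± 1.44 and 23.4 ± 0.492 CPM gave a log2 fold change of -0.08 (interval -0.36 to 0.21). Its coefficients of variation of 5.83% and 2.10% were below the 6.85% and 8.02% expected of counting alone, so no spread between mice was detectable for Ccnd3 at this depth.

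Cdk6, the kinase partner of the D cyclins, was close to the limit of detection. It had 11, 3 and 17 counts in wild type and 17, 11 and 10 counts in Lair1-/- mice 1 to 3, or 31 against 38 in sum. These are 1.39, 0.328 and 1.91 CPM against 2.45, 1.96 and 1.37 CPM. Exact Poisson intervals at 95%, which cover counting error only, ran from 0.0677 to 0.959 CPM in wild type mouse 2 and from 1.43 to 3.92 CPM in Lair1-/- mouse 1. The log2 fold change of 0.67 had an interval of -0.51 to 1.85. It was 0.21 without wild type mouse 2 and 1.18 without wild type mouse 3, so neither a rise nor a fall could be read at this depth. The nearest profiles to Cdk6 were Cxcr2 (0.20), Tnnt3 (0.30) and Ahr (0.31), all at under 4 CPM in every library. Cdk4, the other kinase of this step, was at 199 ± 13.2 and 200.04 ± 10.8 CPM, or 0.01 on the log2 scale (interval -0.19 to 0.21), and -0.09 without mouse 1 of both groups.

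Rbl2 was also low. It had 60, 41 and 59 counts in wild type and 32, 42 and 53 counts in Lair1-/- mice 1 to 3, which are 7.57, 4.49 and 6.62 CPM and 4.61, 7.47 and 7.25 CPM. Each genotype held 1 library near 4.5 CPM and 2 higher ones, wild type mouse 2 and Lair1-/- mouse 1 being the low ones. From means of 6.22 ± 1.58 and 6.44 ± 1.59 CPM, the log2 ratio was 0.05 (interval -0.53 to 0.63). Without mouse 1 of both groups it was 0.40 (-0.24 to 1.04), and it ranged from -0.14 (without wild type mouse 2) to 0.24 (without Lair1-/- mouse 1) when 1 library was left out.

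Shares of counts within pairs of genes do not depend on how libraries are scaled. Cdkn2d and Cdkn1b were paired by function, as CDK inhibitors, and not as members of 1 family. The pairs and their 4 two-sided exact permutation tests, in which 3 against 3 libraries cannot give a p below 0.1, are described by the share of the first gene. Lengths differ between genes, and so may the part of each RNA that was read, so a share of counts is not a share of molecules. Btg2 made up 27.8%, 18.9% and 18.8% of Btg2 plus Btg1 counts in wild type and 26.7%, 19.9% and 16.6% in Lair1-/- mice 1 to 3, with exact binomial 95% intervals of at most 28.7% and at least 25.8% for the mouse 1 libraries. The difference between genotypes was -0.780 percentage points (exact permutation p = 0.7, adjusted 0.7). Its sign turned to 2.20 without wild type mouse 1.

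Cdkn2d made up 14.1%, 13.9% and 13.1% of Cdkn2d plus Cdkn1b counts in wild type and 12.1%, 12.6% and 10.03% in Lair1-/- mice 1 to 3. All Lair1-/- shares lay below all wild type shares, with a difference of -2.13 percentage points (exact permutation p = 0.1, the smallest possible, and 0.4 after adjustment over the 4 shares). Tob2 made up 76.1% to 84.8% of Tob2 plus Tob1 counts in wild type and 76.2% to 79.1% in Lair1-/- cells, a difference of -2.01 points (exact permutation p = 0.7) that was 0.399 without wild type mouse 3. Ccnd2 made up 90.1% to 93.5% of Ccnd2 plus Ccnd3 counts in wild type and 91.9% to 93.3% in Lair1-/- cells, a difference of 0.907 points (exact permutation p = 0.7). Without wild type mouse 1 that difference was 0.0382 points.

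**Figure D4:**
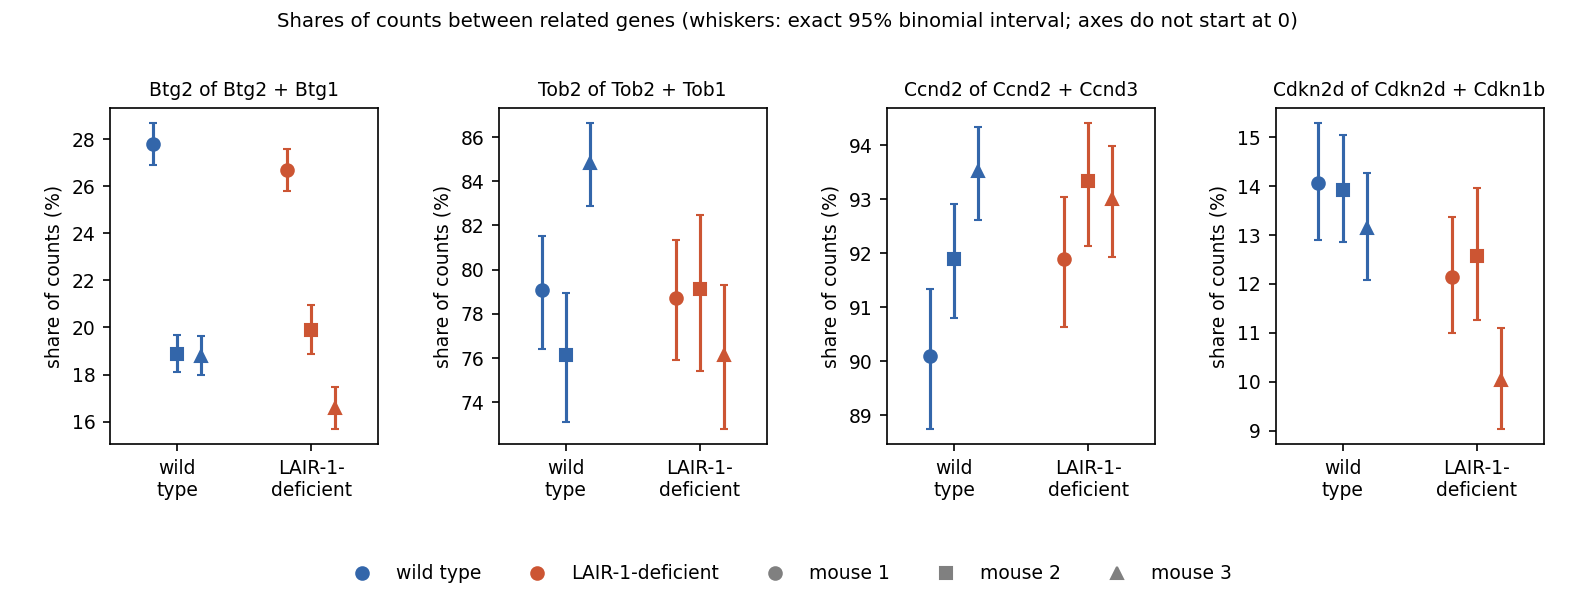
Share of counts in percent (vertical axes, which do not start at 0) of the first gene in each pair, by genotype (colour) and mouse (symbol), with exact 95% binomial intervals as whiskers. Btg2 is above 26% in both mouse 1 libraries and below 20% in the others, and Cdkn2d is the pair in which the genotypes do not overlap, with 13.1% to 14.1% against 10.03% to 12.6%.

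The other genes of the pathway gave no call either, in any of 8 lists. In the CCR4-NOT complex and its poly(A) partners, through which BTG and TOB proteins act, all 16 genes were tested, with 9 positive and 7 negative fold changes and 0 called in either direction. Cnot6, a catalytic deadenylase subunit, was at 17.9 ± 2.27 CPM in wild type, against 12.6 ± 1.33 CPM in Lair1-/- cells, without overlap (log2 fold change -0.51, interval -0.87 to -0.14, unadjusted p 0.0091 and adjusted p 1.000 by edgeR). Pabpc1, the cytoplasmic poly(A) binding protein, was at 1773 ± 78.8 and 1583 ± 59.8 CPM, also without overlap, and did not pass. Separate libraries were found for 3 of the 16 genes, against 8.38% of all genes. The third was Cnot4, a ubiquitin ligase subunit, which lay in the other direction, at 33.3 ± 1.35 and 39.5 ± 2.79 CPM (log2 fold change 0.24, interval -0.02 to 0.50). Without mouse 1 of both groups Cnot6 was -0.67, Pabpc1 -0.21 and Cnot4 0.17, with 0 called. In that fit 11 of the 16 were positive and 5 negative. An unadjusted p under 0.05 by edgeR was reached by 3 (4.53% of all genes), Cnot6, Pabpc1 and Cnot7 (-0.43).

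Of 19 genes of pocket proteins, E2F factors and the DREAM complex, 15 were tested, with 8 positive and 7 negative fold changes, a median of 0.002 and 0 called. E2f4, the E2F factor that p130 binds in resting cells, was at 181 ± 24.4 and 212 ± 7.38 CPM, with all Lair1-/- libraries above all wild type ones. Its log2 fold change was 0.23 (interval 0.01 to 0.45), with an unadjusted p of 0.0402 and an adjusted p of 1.000 by edgeR. It was 0.09 (-0.12 to 0.31) without mouse 1 of both groups. E2f2, an activating E2F factor, was at 6.24 ± 0.868 and 4.64 ± 0.819 CPM. Among the other G1 cyclins and kinases, 7 of 9 were tested, 4 positive and 3 negative, with Ccnh (log2 fold change 0.21) and Mnat1 (-0.18), partners of CDK7, having the smallest p. Of the other CDK inhibitors, 4 of 5 were matched and only Cdkn2c was tested (9.59 ± 3.799 and 9.64 ± 3.46 CPM).

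Among factors that act on the members 0 were called, with intervals of unequal width. The 11 tested genes for turnover of p27 and D cyclins split into 5 positive and 6 negative. Rnf123, a subunit of a ubiquitin ligase for p27, had a log2 fold change of 0.25, and Cks1b, a cofactor of the SCF ligase for p27, of -0.31. The 13 tested upstream regulators of quiescence split into 6 and 7, with Elf4, a factor that restrains CD8 T cell proliferation, at 0.22 and Tcf7, a factor of naive and memory T cells, at 0.15. Elf4 was 0.34 without mouse 1 of both groups (unadjusted p 0.0159 and adjusted p 0.972 by edgeR). Klf2 and Klf4, Krüppel-like factors of resting T cells, had wide intervals, and for each the mouse 1 libraries of both genotypes were the 2 highest of the 6. Klf2 had a log2 fold change of 0.11 (-0.78 to 0.99), and -0.12 (-0.31 to 0.07) without mouse 1 of both groups. Klf4 had 0.60 (-1.91 to 3.10), and 0.50 without them. For Skp2, the substrate receptor of the SCF ligase for p27, the value was -0.41 (-1.64 to 0.81) at 0.288 to 2.08 CPM. It reversed to 0.20 (-1.09 to 1.49) without mouse 1 of both groups. Among 20 E2F targets and genes of dividing cells, 17 were tested, with 7 positive and 10 negative fold changes, a median of -0.10 and 0 called. Top2a was at 7.28 ± 2.93 and 3.93 ± 0.414 CPM (log2 fold change -0.90, interval -1.56 to -0.23, adjusted p 1.000, and -1.11 without mouse 1 of both groups with an adjusted p of 0.768 by edgeR), and Cdk1 at 4.49 ± 0.179 and 2.93 ± 1.05 CPM. The genotypes overlapped for Top2a, and both mouse 1 libraries lay below the other 4, as for 4 of the 17 genes (12.1% of all genes). Those of Cdk1 did not overlap, which held for 2 of the 17 (8.38% of all genes). Mki67, a marker of cycling cells, was at 0.144 to 2.41 CPM over all libraries. The genotype medians of the tested lists lay between -0.10 and 0.04, beside 0.03 for the 10 genes. In bulk RNA, a change in the share of some cells and a change in RNA per cell cannot be told apart.

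**Figure D5:**
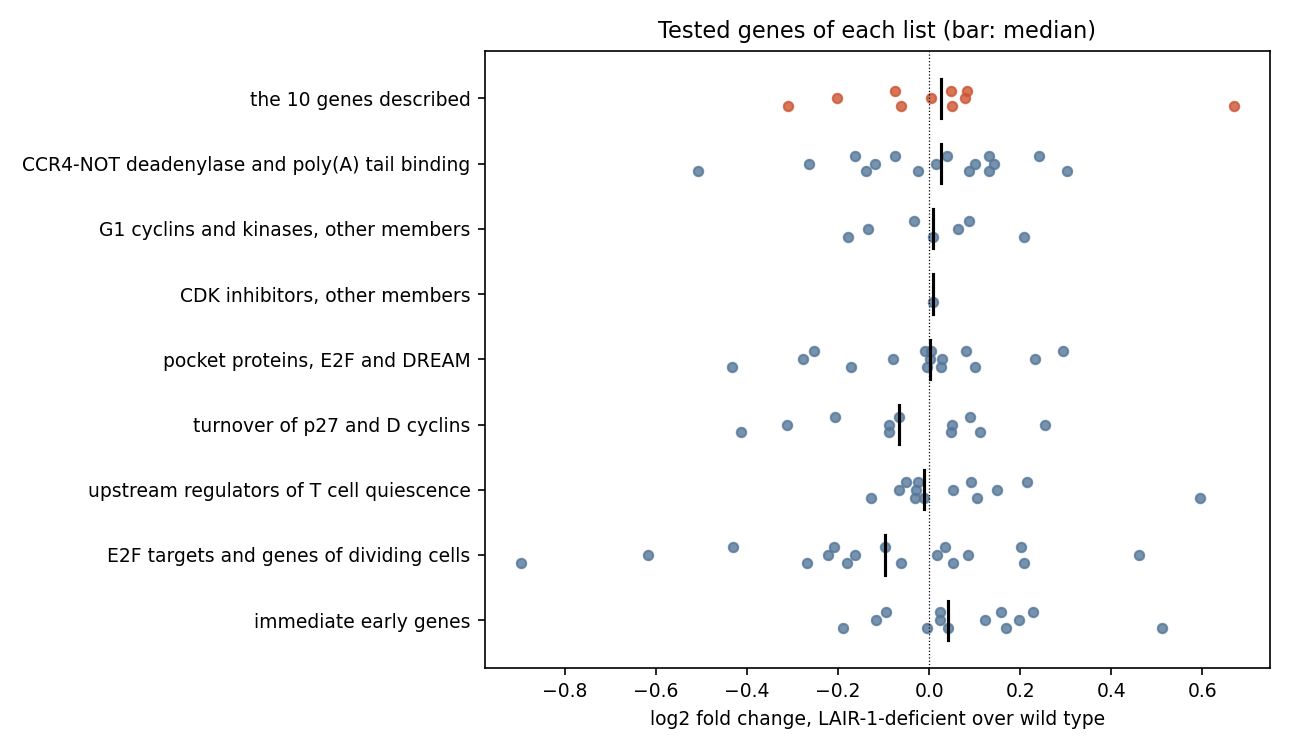
Log2 fold change of LAIR-1-deficient over wild type (horizontal axis) for each tested gene of the 10 genes described (red points) and of 8 lists of related genes (blue points), with the list median as a bar. Medians lie between -0.10 and 0.04, and no point in the plot passed the test.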

How the data were processed

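Each deposited column holds the raw counts of 1 library by gene, per the file headers. BWA and mm10 are named in the submitters' processing notes. No annotation, counting tool, strand setting or molecular identifier is stated in the labels, so overlapping genes cannot be told apart. The Poisson and binomial intervals cover counting error only. Columns were matched by sample description, groups and mouse numbers by title. No 2 libraries agreed within sampling noise (chi-square per gene 4.99 to 23.4).

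In R 4.3.3, edgeR 4.0.16 removed low genes with filterByExpr (smallest count 10), scaled by TMM and ran a robust quasi-likelihood F test without covariates on 9565 genes, with Benjamini-Hochberg adjustment and a threshold of 0.05. Intervals of fold changes at 95% came from the F statistic. Its p-values set the genotype difference against the spread between 3 mice per group, or fewer where libraries were left out. That spread was estimated for each gene with information shared across all genes tested. The 4 spike-in rows were left out. The script was tested on simulated data. Alternatives were RLE or total scaling, other filters, DESeq2 1.42.0, limma-voom 3.58.1, a block on mouse number and leaving out libraries. Leaving out mouse 1 of both groups was extended to the lists and Lair1 after the data were seen.

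The members and lists were chosen with earlier results of these data known. Named are all 10 members, Lair1, per list the 2 genes of smallest p, the 3 immediate early genes with most counts, and the 3 nearest profiles of members with over 2-fold range. Cdk4, Mki67, Cnot4, Cnot7, Klf2, Klf4, Skp2 and the marker genes were added after their values were seen. So were the immediate early genes at a p under 0.05 without mouse 1. Profiles used log2 CPM with a prior count of 2. Older symbols were matched through RefSeq synonyms. The list of other BTG and TOB genes had no match and was not analysed here. Of the 10 members, 9 matched a promoter window; Ccnd2 did not.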

Additional observations from a re-analysis of the deposited data

How the results depend on the processing

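Of the 10 genes, 0 were called under any alternative run (9 of them tested under the filter of 5 CPM in 3 libraries, which Cdk6 did not pass). Of 139 alternative fold changes of the 10, 126 kept their sign and 13 reversed, all with an adjusted p of at least 0.958. Btg2 was -0.024 with limma-voom, -0.028 with mouse number as a replicate block and -0.081 without mouse 1 of both groups, and Btg1 was -0.025 without mouse 1 of both groups. With 1 library left out the log2 fold changes spanned -0.081 to 0.11 for Btg1, -0.44 to 0.36 for Btg2, -0.21 to 0.036 for Tob1, -0.032 to 0.24 for Ccnd2 and -0.14 to 0.24 for Rbl2. The reversed shares spanned -3.60 to 2.20 points for Btg2 and -3.95 to 0.399 for Tob2. Over all genes, 1 was called, against 3 without a filter, 0 with the filter of 5 CPM, 0 with limma-voom, 0 without mouse 1 of both groups and 0 to 2 with 1 library left out. Lair1 did not pass the filter of 5 CPM in 3 libraries, so it was not tested there. Of the list genes named, Cdk4 (-0.091), Klf2 (-0.12) and Skp2 (0.20) reversed without mouse 1 of both groups. So did the immediate early genes Jun (-0.17), Junb (-0.018), Egr2 (-0.59) and Nr4a1 (-0.53), among 8 of the 13 on that list. Lair1 kept its sign wherever tested and lost its call with limma-voom (adjusted p 0.142), without wild type mouse 1 and without mouse 1 of both groups. Same-numbered mice correlated at 0.29, 0.01 and 0.07 in their deviations from the group means over genes, and wild type mouse 2 correlated best with LAIR-1-deficient mouse 3, so the numbers were not taken as pairs. The block changed no call (1 gene called), and permuting within mouse number gave an exact p of 0.25 for the Cdkn2d share, the smallest possible. The 3 to 17 counts of Cdk6 and 32 to 60 of Rbl2 per library limit both.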
